A study of Mus musculus with 8 samples.

Results

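The S100 calcium-binding protein genes S100A4, S100A6, S100A8 and S100P were examined on spotted muscle arrays that carried RNA of the mouse myoblast line C2C12. The 4 genes are 4 of 2922 named genes, and their 8 spots (2 adjacent spots per gene) are 8 of 9984. Each spot whose only gene symbol was one of the 4 names was taken. The 4 names were chosen by measured values, with scores of these arrays against control medium of the same hour in view. Their matched-hour scores are therefore given as a description, with no test. The conditioned groups, MBC14 and MBC24, were C2C12 myoblasts kept for 14 and 24 h in medium that CAPAN-1 cells, a line from a human pancreatic cancer, had conditioned. The control groups, MBN14, MBN24 and MBN0, were C2C12 myoblasts in control medium for 14, 24 and 0 h. Both sets came from 1 cell line grown, per the labels, in medium with fetal bovine serum. The labels name no further cultures, so each comparison holds 1 pair of RNAs. There were 4 comparisons with 2 arrays each: MBC14 was set over MBN14 and over MBN0, and MBC24 over MBN24 and over MBN0. On array A the conditioned RNA carried Cy5, and on array B it carried Cy3.

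S100 proteins are small EF-hand proteins that change shape on binding calcium and then grip partner proteins. S100A8 pairs with S100A9 to form calprotectin, an alarmin of neutrophils and monocytes that signals through pattern recognition receptors. S100A4, also called fibroblast-specific protein, binds non-muscle myosin and is tied to cell motility. S100A6 (calcyclin) is abundant in dividing fibroblasts and binds the calcyclin-binding protein. S100P is known from placenta and is abundant in human pancreatic ductal cancer.

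The array names human genes, while the hybridised RNA was from mouse. In the RefSeq gene table of the mouse (GRCm38.p6), S100A4, S100A6 and S100A8 each matched a protein-coding mouse gene by symbol, all on chromosome 3. Among the protein-coding genes there, the order along the chromosome is S100a4, S100a5, S100a6, S100a7a, S100a8, S100a9. S100P matched only a synonym of the pseudogene Gm40318 on chromosome 5, and the files do not name the mouse transcript that its spots detected. The sequences of the spotted probes were not used here. The 100 bases before the annotated start of the 3 mouse counterparts are shown because the 3 genes lie close together and differ in these letters. Capitals mark the TATA box letters TATAAA, searched on both strands.

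S100a4, chr3:90603670-90603769, plus strand: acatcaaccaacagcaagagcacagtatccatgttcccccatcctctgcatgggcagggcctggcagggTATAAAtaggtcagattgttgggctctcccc
S100a6, chr3:90612794-90612893, plus strand: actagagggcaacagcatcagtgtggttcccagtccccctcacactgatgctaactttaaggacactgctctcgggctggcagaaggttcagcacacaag
S100a8, chr3:90668971-90669070, plus strand: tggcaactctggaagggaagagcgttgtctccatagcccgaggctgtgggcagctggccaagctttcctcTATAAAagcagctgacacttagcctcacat

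The sequences are from RefSeq, build GRCm38.p6. The TATAAA match began 31 bases before the start in S100a4 and 30 bases before it in S100a8, and S100a6 held 0 matches. Of 32851 mouse promoter windows of this length, 5.56% held such a match. The E-box CANNTG, the 6 letters bound by myogenic and other helix-loop-helix factors, occurred 2 times in the S100a8 window, 50 and 22 bases before the start, and 0 times in the other windows, against 34.4% of all windows with at least 1. Both motifs read by letters alone describe the windows and say nothing of binding.

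The deposited value is 1 signed score per spot and array, on a scale that the sources used here do not state, so a value below is in score units and is no fold change. Scores were centred on each array's median, and the 2 spots were averaged. How array B should be signed is not settled. Across the 2922 genes, the deposited scores of arrays A and B had correlations from -0.32 to -0.13 in the 4 comparisons, and MBC14 over MBN14 had the lowest. In the Cy5-over-Cy3 reading, used first below, array B was turned. In the conditioned-over-control reading, both arrays kept their deposited sign. In both, a value above 0 stands for more signal from conditioned cells, a direction that the channel names make likely but do not settle. If the ratio ran the other way, every sign would turn. A pair of arrays with opposite signs in one reading has the same sign in the other. A size rule served in place of a test within a comparison, which has 1 replicate: the mean of the arrays had to reach 1 score unit and each array 0.5 in that direction. Across all genes, 19.9% passed it in MBC14 over MBN14, 17.6% in MBC24 over MBN24, 15.7% in MBC14 over MBN0 and 19.3% in MBC24 over MBN0 in the Cy5-over-Cy3 reading. In the conditioned-over-control reading, 6.37%, 6.02%, 10.3% and 6.84% passed in the same order. Because the scores are ratios, the level of a myoblast or any other marker in the cells could not be read from them.

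**Figure D1:**
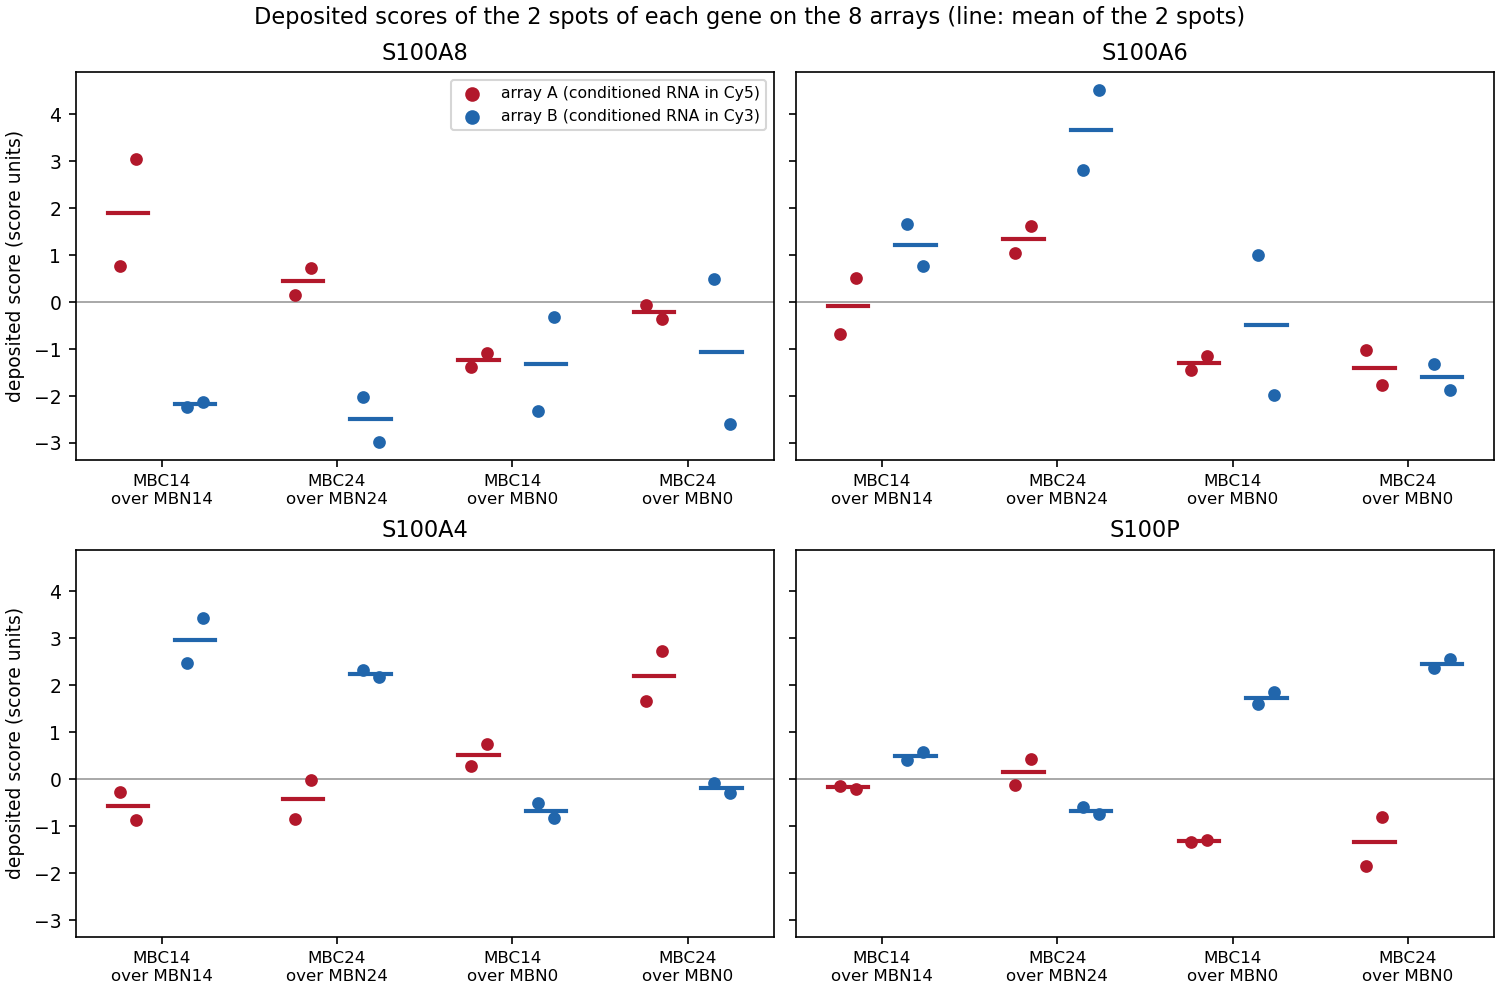
Deposited scores, in score units, of the 2 spots of S100A8, S100A6, S100A4 and S100P on each of the 8 arrays, with array A in red, array B in blue and a line at the mean of the spots. The S100P spots lie close together on most arrays, while S100A8 and S100A6 spots on array B of the comparisons with MBN0 differ in sign on 1 array each (0.50 and -2.60 for S100A8, 0.99 and -1.97 for S100A6).

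S100A8, the alarmin subunit, had the highest score of the 4 genes at 14 h and at 24 h against control medium of the same hour in the Cy5-over-Cy3 reading. In MBC14 over MBN14 it scored 1.90 on array A and 2.27 on array B, a mean of 2.09 ± 0.26 (SD, n = 2 arrays of 1 RNA pair, here and for each SD below), which ranked 68 from the top of 2922 genes. In MBC24 over MBN24 it scored 0.45 on array A and 2.58 on array B, a mean of 1.51 ± 1.503, and missed the size rule because of array A. Both arrays lay above 0 at both hours. Against MBN0 the same gene behaved otherwise. In MBC14 over MBN0 it scored -1.18 on array A and 1.29 on array B. The arrays of MBC24 over MBN0 gave -0.24 (A) and 0.996 (B). The arrays thus opposed each other, with means of 0.05 ± 1.74 and 0.38 ± 0.88. With array B as deposited the picture was inverted: the matched arrays opposed each other (means -0.19 and -1.06), and the MBN0 arrays lay together below 0. The mean was then -1.23 ± 0.08 in MBC14 over MBN0, past the size rule, and -0.62 ± 0.53 in MBC24 over MBN0. No reading placed both arrays of S100A8 on the same side in all 4 comparisons. Centring each spot on its 11 neighbouring spots took the 14 h mean from past the size rule to 0.88. On array A of MBC14 over MBN14 the 2 S100A8 spots scored 0.76 and 3.04. The mean of that comparison was 1.55 for spot 1 alone and 2.63 for spot 2 alone.

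S100A9, which forms calprotectin with S100A8, did not share the S100A8 scores at the matched hours. At 14 h it scored 0.43 on array A and -0.43 on array B, and at 24 h -0.52 and -1.53, a mean of -1.03 ± 0.71 that passed the size rule downward in the Cy5-over-Cy3 reading. With array B as deposited, its means were 0.43 at 14 h and 0.50 at 24 h, against -0.19 and -1.06 for S100A8. In MBC24 over MBN0 the means of both genes lay on one side of 0 in each reading. They were 0.85 for S100A9 and 0.38 for S100A8 with array B turned, and -0.57 and -0.62 as deposited. In MBC14 over MBN0 the means lay on opposite sides in each reading. The S100A9 spots disagreed more than most, with a median SD of 0.96 between them. Markers of myeloid cells, the main source of S100A8 in blood, were read beside it. Of 14 listed, 9 were measured, S100A9 among them. In the Cy5-over-Cy3 reading of MBC14 over MBN14, FCER1G was higher past the size rule, and LYZ, FCGR3A, TYROBP and MPO were lower, with means over the list from -1.96 to 1.19 and a median of -0.92, against -0.04 for all genes. FCGR3A, an immunoglobulin receptor, scored -2.09 and -1.83 at 14 h and -3.18 and -1.11 at 24 h. At 24 h, 0 markers were higher and 2 lower. Both comparisons with MBN0 had 1 marker higher and 0 lower. The shares of all genes past the rule were 19.9% and 17.6% at the matched hours, and 15.7% and 19.3% against MBN0. In the other reading 0 of 9 passed in any comparison, beside 6.02% to 10.3% of all genes. The list median at 14 h was then 0.12, and FCGR3A averaged -0.13 at 14 h and -1.03 at 24 h. Since the values are ratios, no summed marker level could be given, and fewer cells of a type and less RNA per cell cannot be told apart. The labels name C2C12 myoblasts as the source of the RNA and no myeloid cells. The part of such cells in the S100A8 score was not tested.

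S100A6, calcyclin, had arrays of one sign in 3 of 4 comparisons in the conditioned-over-control reading, all but MBC14 over MBN14. There it scored 1.35 on array A and 3.59 on array B in MBC24 over MBN24, a mean of 2.47 ± 1.58 that ranked 9 from the top of 2922 genes. At 14 h it scored -0.09 on array A and 1.11 on array B, a mean of 0.51 ± 0.85. The high score was thus at 24 h, and array B was the higher array at both hours. Against MBN0 all 4 arrays lay below 0: -1.24 and -0.45 in MBC14 over MBN0, and -1.42 and -1.54 in MBC24 over MBN0. The means were -0.85 ± 0.56 and -1.48 ± 0.08, and only the 24 h one passed the size rule. S100A6 in this reading was therefore above 0 against the 24 h control and below 0 against the 0 h control. With array B turned, the arrays opposed each other in all comparisons but MBC14 over MBN14, and no mean passed (-0.60, -1.12, -0.39 and 0.06 in the order of the comparisons given above).

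S100A4 lay below 0 against control medium of the same hour and above 0 against MBN0 in the Cy5-over-Cy3 reading. In MBC14 over MBN14 it scored -0.57 on array A and -2.86 on array B, a mean of -1.72 ± 1.62 that passed the size rule and ranked 101 from the bottom. In MBC24 over MBN24 it scored -0.42 and -2.17, a mean of -1.29 ± 1.24 that missed it because of array A. Array B carried most of both values. In MBC14 over MBN0 the arrays gave 0.57 and 0.64, and in MBC24 over MBN0 2.18 and 0.12, with means of 0.60 ± 0.05 and 1.15 ± 1.46. Both arrays had the same sign in each of the 4 comparisons, as they had for S100P too and for 13.1% of all genes. With array B as deposited the matched means turned to 1.14 ± 2.43 and 0.88 ± 1.83, with arrays of opposite sign. Of 12 fibroblast markers 6 were measured, and in MBC14 over MBN14 1 of them, FN1 (fibronectin), was lower past the size rule, with a list median of -0.16. At 24 h 0 passed it. Over all genes 19.9% passed it at 14 h and 17.6% at 24 h. COL1A1, the collagen chain, scored 0.01 ± 2.51 at 14 h and 0.36 ± 0.35 at 24 h. In MBC14 over MBN0 FN1 was higher past the size rule, on the same side as S100A4, with 1.16 and 0.89, and COL1A1 was lower. At 24 h FN1 lay on the other side from S100A4, with means of 1.02 in MBC24 over MBN24 and -0.24 in MBC24 over MBN0. Over both hours against MBN0 COL1A1 was lower in limma (-1.87 ± 0.48, SE, adjusted p = 0.00581). It was not called in the other reading, with means of -0.34 and -0.87, and FN1 averaged 0.14 in MBC14 over MBN0. In that reading COL1A1 was lower past the size rule in MBC14 over MBN14 (-1.78), and DCN was lower in MBC24 over MBN0. The labels name no cells but C2C12 myoblasts as the source of the RNA, and the part of fibroblast-like cells in the S100A4 score was not tested.

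S100P lay near 0 against control medium of the same hour and low against MBN0. With array B turned, it scored -0.17 on array A and -0.40 on array B at 14 h, and 0.17 and 0.75 at 24 h, with means of -0.29 ± 0.16 and 0.46 ± 0.41. In MBC14 over MBN0 it scored -1.26 and -1.77, a mean of -1.51 ± 0.36, and in MBC24 over MBN0 -1.35 and -2.52, a mean of -1.94 ± 0.82. The 2 means against MBN0 passed the size rule and ranked 114 and 65 from the bottom. All 4 MBN0 arrays lay below each of the 4 matched-hour arrays. With array B as deposited the same arrays opposed each other, with means of 0.26 ± 2.14 and 0.58 ± 2.74. CAPAN-1 is an epithelial line, and of 14 epithelial markers only SPINT2 was measured. It scored 1.51 and 0.67 in MBC14 over MBN0, past the size rule upward, and 1.28 and -0.57 in MBC24 over MBN0. Its array B at 24 h was thus on the same side of 0 as S100P and the other arrays were not. As deposited, SPINT2 averaged 0.42 and 0.92, above 0 as S100P did. By the labels CAPAN-1 cells conditioned the medium and the RNA was from C2C12. The part of CAPAN-1 cells in the S100P score was not tested.

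**Figure D2:**
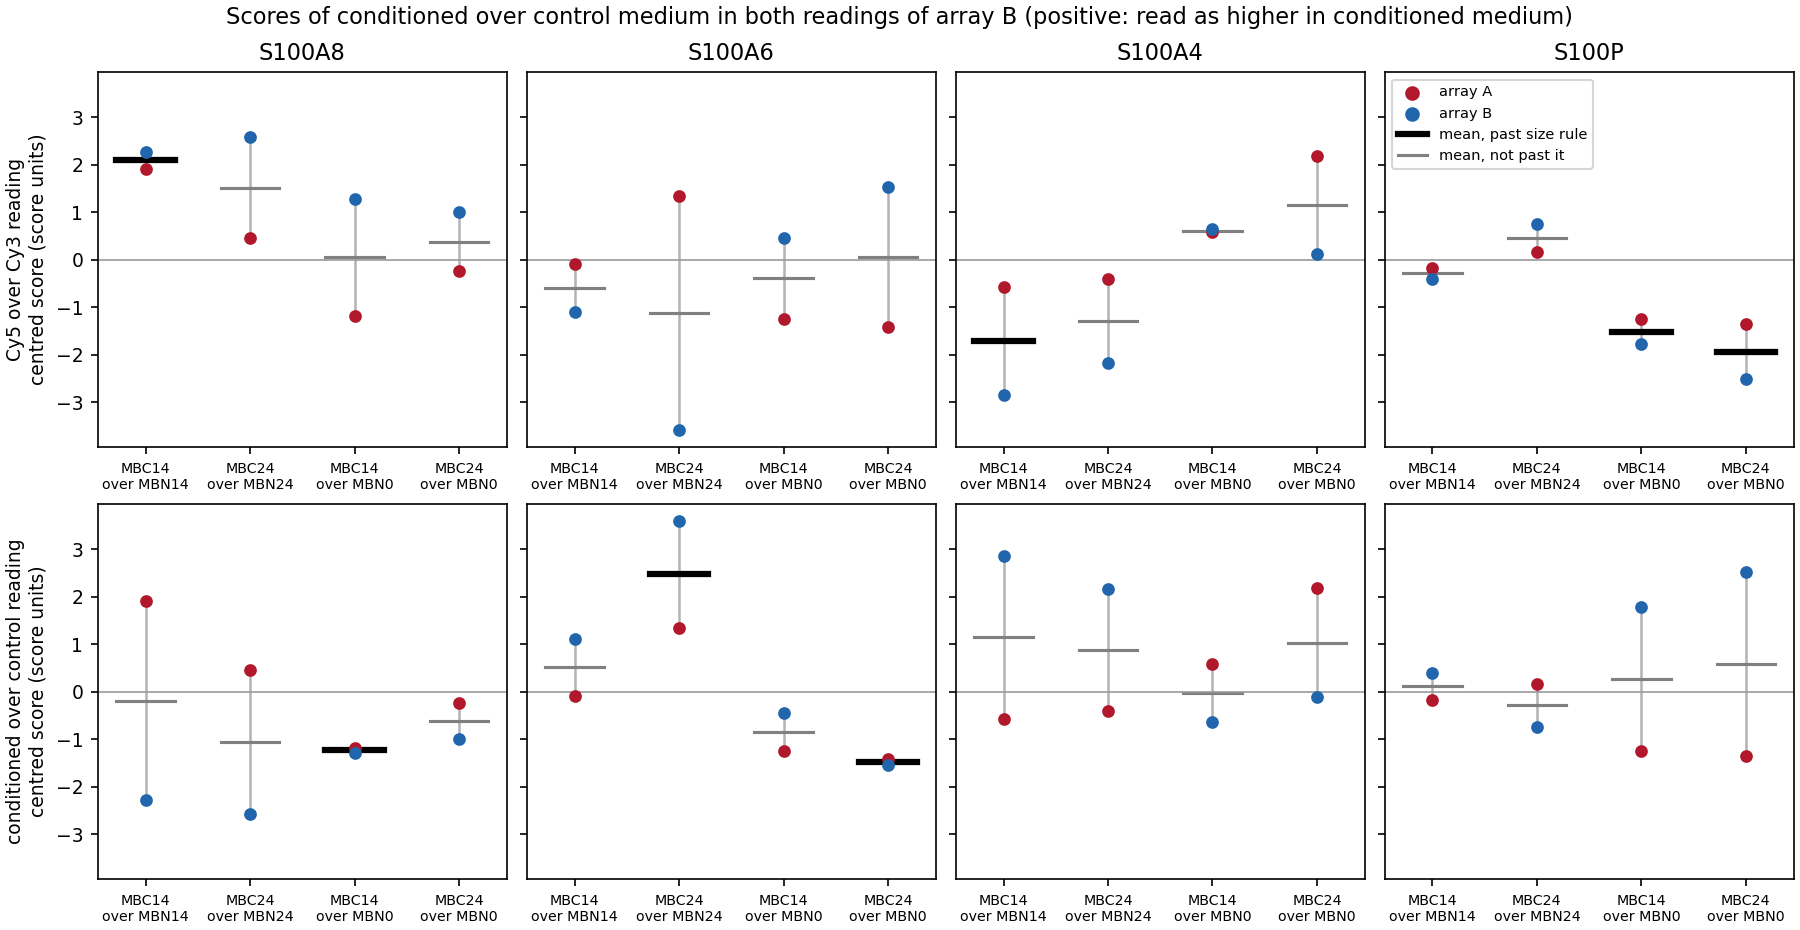
Centred scores, in score units, of the 4 genes in the 4 comparisons, with array A in red, array B in blue and a bar at their mean (thick and black where it passed the size rule), in the Cy5-over-Cy3 reading (top) and the conditioned-over-control reading (bottom). S100A8, S100A4 and S100P pass the size rule in the top row, and S100A6 and S100A8 in the bottom row.

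Counted together, 1 member was higher and 1 lower past the size rule in MBC14 over MBN14 in the Cy5-over-Cy3 reading, 0 in MBC24 over MBN24, and 1 lower in each comparison with MBN0. With array B as deposited, 0 passed in MBC14 over MBN14, 1 higher in MBC24 over MBN24 and 1 lower in each comparison with MBN0. Among all genes, with 14 h given first, 19.9% and 17.6% passed at the matched hours in the Cy5-over-Cy3 reading. Against MBN0 the shares were 15.7% and 19.3%. As deposited, 6.37% and 6.02% of all genes passed at the matched hours, and 10.3% and 6.84% against MBN0. Since measured values chose these 4 genes, nothing is read from the counts of members. The members differed in which reading their arrays shared. S100A4 and S100P shared a sign in all 4 comparisons in the Cy5-over-Cy3 reading, S100A8 in 2 and S100A6 in 1. S100A6 shared a sign in 3 comparisons in the conditioned-over-control reading, as did at least that many for 21.9% of all genes.

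The 2 adjacent spots of a member allow a check within each array. The SD between the S100P spots had a median of 0.13 over the 8 arrays and reached 0.73, and 0.64% of the 2641 genes with 2 spots had a smaller median. S100A4 had a median of 0.38, S100A8 0.54 and S100A6 0.58, against 0.57 over all such genes. The widest S100A8 gap was an SD of 2.19, on array B of MBC24 over MBN0, where its spots scored 0.50 and -2.60 as deposited. S100A6 had an SD of up to 2.10, on array B of MBC14 over MBN0, with spots at 0.99 and -1.97. The S100A6 and S100A8 values of those arrays are therefore means of spots that disagreed in sign. So are the S100A6 value on array A of MBC14 over MBN14 (spots at -0.67 and 0.50 as deposited) and the S100P value on array A of MBC24 over MBN24 (-0.13 and 0.44).

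The comparisons with MBN0 were tested in limma, with 2 values per gene (the array means of MBC14 over MBN0 and MBC24 over MBN0) against 0, two-sided, adjusted over all genes. The 2 values share the MBN0 RNA, and the MBC RNAs are those of the matched arrays, so the p-values are too small and cover only the spread between these values. Whether values against MBN0 were also in view when the 4 genes were chosen is not known, so a member's p here is not independent evidence. In the Cy5-over-Cy3 reading, 168 of 2922 genes (5.75%) passed at an adjusted p under 0.05, and S100P was the 1 member among them. Its mean fell by 1.73 below 0, with an SE of 0.48 (adjusted p = 0.0139), and it was lower on 4 of 4 arrays. limma estimated 1 common spread here, so all genes had that SE. S100A4 had a mean of 0.88 (adjusted p = 0.322), S100A8 0.22 (adjusted p = 0.87) and S100A6 -0.17 (adjusted p = 0.899). The S100P call was lost, at adjusted p from 0.0721 to 0.417, with no centring, with centring on 51 or 11 neighbouring spots, and with either array letter left out (-2.15 without the A arrays and -1.31 without the B arrays). With array B as deposited, limma passed 0 genes (0%), while 228 had an unadjusted p under 0.05. There S100A6 had a mean of -1.16 ± 0.37 (SE, adjusted p = 0.562), S100A8 -0.93 ± 0.37 (adjusted p = 0.635), S100A4 0.50 ± 0.41 (adjusted p = 0.815) and S100P 0.42 ± 0.36 (adjusted p = 0.823).

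The same fit on the matched hours passed 152 genes (5.2%) in the Cy5-over-Cy3 reading. The members' means were 1.80 ± 0.39 (SE) for S100A8, -1.50 ± 0.39 for S100A4, -0.86 ± 0.39 for S100A6 and 0.09 ± 0.40 for S100P. As this contrast chose the members, these stand as a description, with no call.

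**Figure D3:**
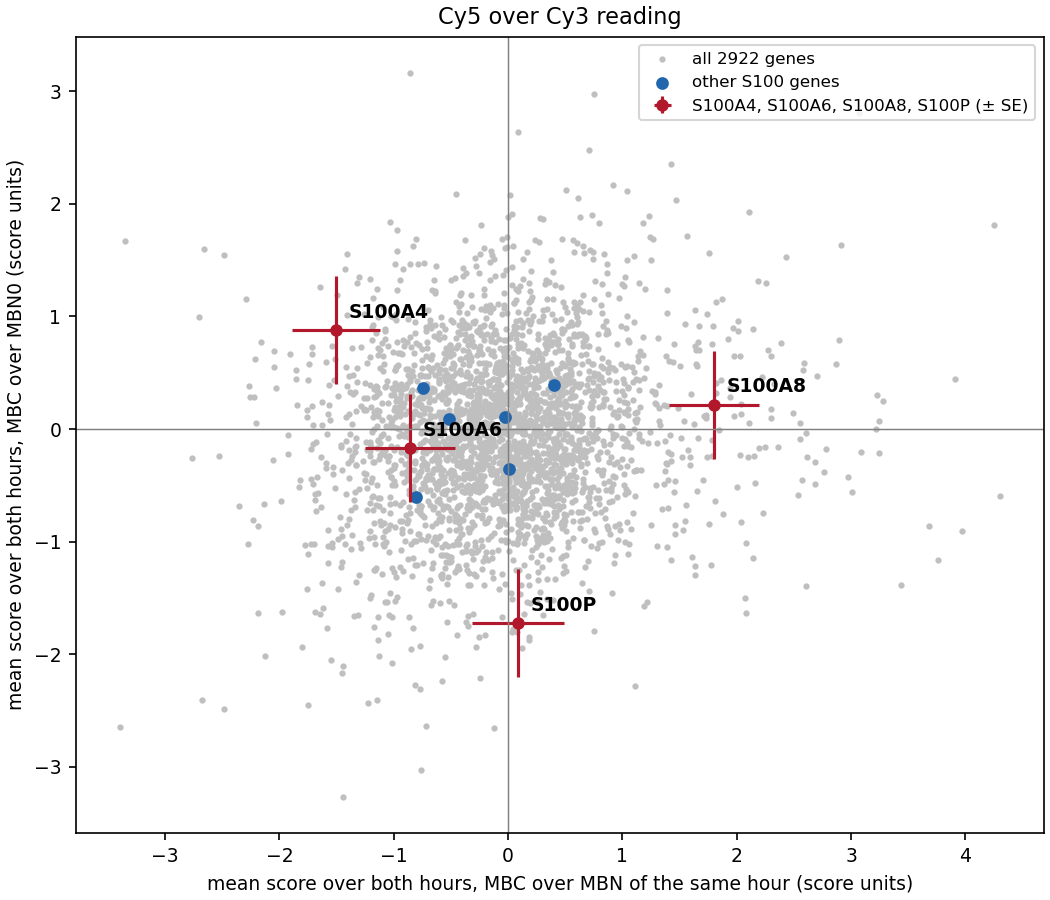
Mean score over both hours against control medium of the same hour (horizontal axis) and against MBN0 (vertical axis), in score units and the Cy5-over-Cy3 reading, for all 2922 genes (grey), the other S100 genes (blue) and the 4 members (red, bars are SE). S100A8 lies at 1.80 on the horizontal axis and near 0 on the vertical one, and S100P near 0 and at -1.73.

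Changes within control medium were derived by subtracting A from A and B from B scores. Such values are indirect and reuse the arrays above with the opposite sign. With array B turned, S100A4 scored 1.14 and 3.497 (arrays A and B) in MBN14 over MBN0 and 2.596 and 2.29 in MBN24 over MBN0, with means of 2.32 ± 1.66 and 2.44 ± 0.22. S100P scored -1.08 and -1.37 at 14 h and -1.52 and -3.27 at 24 h, and S100A8 -3.08 and -0.99 at 14 h and -0.69 and -1.58 at 24 h. For these 3 genes both arrays shared a side at both hours, above 0 for S100A4 and below 0 for the others. S100A6 did so in the conditioned-over-control reading, with -1.16 and -1.56 at 14 h and -2.77 and -5.12 at 24 h. In that reading the arrays of S100A4, S100A8 and S100P opposed each other at both hours. Their means at 14 and 24 h were -1.18 and 0.15 (S100A4), -1.05 and 0.44 (S100A8), and 0.14 and 0.87 (S100P). With array B turned, the S100A6 arrays opposed each other, with means of 0.20 and 1.18. No single reading placed the arrays of all 4 genes on one side. Over all genes, such derived means had an SD of 1.21 at 14 h and 1.25 at 24 h in the Cy5-over-Cy3 reading, and 1.02 and 1.04 in the other. Between the conditioned samples, MBC24 over MBC14, the means in the Cy5-over-Cy3 reading lay between -0.42 (S100P) and 0.55 (S100A4), within the 0.96 SD of all genes. In the other reading they lay between -0.63 (S100A6) and 1.06 (S100A4, with 1.61 and 0.52 on arrays A and B), against an SD of 0.92.

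Of the other S100 genes on a fixed list of 19, 6 were measured: S100A1, S100A9, S100A10, S100A11, S100A12 and S100B. With array B turned, 0 of 6 passed the size rule in MBC14 over MBN14, 1 was lower in MBC24 over MBN24 (S100A9), 0 passed in MBC14 over MBN0, and 1 was higher in MBC24 over MBN0. That gene was S100B, a calcium sensor best known from glia, with 1.65 and 1.17. The shares of all genes past the size rule were 19.9%, 17.6%, 15.7% and 19.3% in the same order. In limma on the comparisons with MBN0, 0 of these 6 passed, against 5.75% of all genes. In the Cy5-over-Cy3 reading S100A10, the partner of annexin A2, lay below 0 on both arrays at both matched hours, with means of -0.79 ± 0.82 and -0.82 ± 0.62. It did not pass the size rule. As deposited, its arrays opposed each other at both hours, with means of 0.58 and 0.44. With array B as deposited, S100A11 and S100A12 were lower in MBC14 over MBN0 (-1.30 ± 0.86 and -1.21 ± 0.24), as S100A8 was. Of all genes, 10.3% passed the size rule there. S100A12 did not match a symbol or synonym of the mouse gene table.

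**Figure D4:**
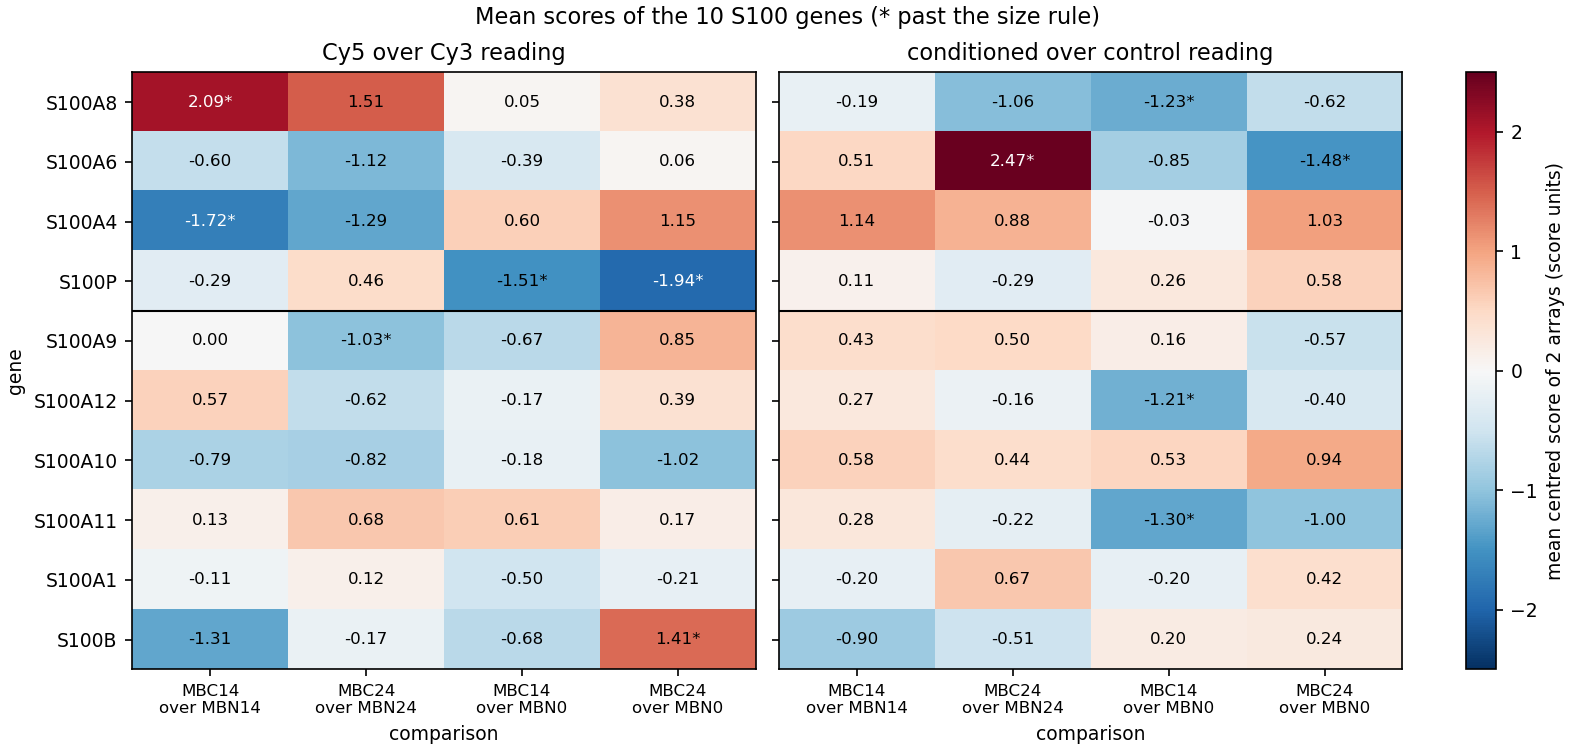
Mean centred scores of arrays A and B, in score units, for the 4 members (above the line) and the other 6 S100 genes in the 4 comparisons, in the Cy5-over-Cy3 reading (left) and the conditioned-over-control reading (right), with an asterisk where the size rule was passed. A gene that passes in one reading cannot pass in the other for the same comparison, and S100A8 and S100A6 carry asterisks in the right panel as S100A8, S100A4 and S100P do in the left.

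Proteins that S100 proteins bind, or that receive their signal, were listed as well, and 13 of 26 were measured. With array B turned, 2 passed the size rule upward and 1 downward in MBC14 over MBN14, 2 higher and 4 lower in MBC24 over MBN24, 1 higher and 0 lower in MBC14 over MBN0, and 2 higher and 1 lower in MBC24 over MBN0. Over all genes, 19.9%, 17.6%, 15.7% and 19.3% passed in the same order. The list medians were 0.22, 0.10, -0.08 and 0.17, against -0.04, -0.11, -0.04 and -0.03 for all genes. AHNAK, a large protein held at the membrane by S100A10 and annexin A2, scored 1.57 and 1.91 at 14 h over the matched control, with 1.53 and 2.89 at 24 h. Annexin A2 itself (ANXA2) scored -0.31 and -2.37 at 14 h, and -1.44 and -2.05 at 24 h, where it passed the size rule. It passed the rule in the other direction in MBC24 over MBN0, with 1.002 and 3.32, so, like S100A4, it lay below 0 against the matched control and above 0 against MBN0 at 24 h. The other reading had 1 of 13 lower in MBC14 over MBN14 (MYH9), 1 higher in MBC24 over MBN24 (TPM1), 1 higher (CD36) and 3 lower (ANXA11, MYH9, AHNAK) in MBC14 over MBN0, and 0 in MBC24 over MBN0. Over all genes, 6.37%, 6.02%, 10.3% and 6.84% passed in that reading in the same order. AHNAK then averaged -0.17 and -0.68 at the matched hours, and ANXA2 1.03 and 0.31. With array B turned, the annexins ANXA5, ANXA7 and ANXA11 were the other genes lower in MBC24 over MBN24. CD36, a fatty acid transporter that also takes up lipid bound by S100A8 with S100A9, scored 0.67 and 1.39 at 14 h and 1.80 and 2.08 at 24 h in that reading, against means of -0.36 and -0.14 in the other. SUGT1, a co-chaperone that binds S100A6, was the 1 of 13 genes called in limma on the comparisons with MBN0. The call (2.12 ± 0.48, SE, adjusted p = 0.00128) rests on the SE that all genes shared. The 2 hours differed in size. Its arrays A and B gave 3.52 and 2.999 at 14 h, a mean of 3.26. At 24 h they gave 1.32 and 0.64, and that mean, 0.98, missed the size rule. SUGT1 was not called with array B as deposited, where it averaged 0.26 and 0.34 against MBN0.

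Of 48 genes on a list of other EF-hand genes, 21 were measured, among them PPP3CA, which is not itself an EF-hand gene. In the Cy5-over-Cy3 reading 4 passed the size rule upward and 2 downward in MBC14 over MBN14, against 2 upward and 1 downward for MBC24 over MBN24. Of the comparisons with MBN0, the 14 h one had 1 upward and 0 downward, and the 24 h one 1 upward and 2 downward. The shares over all genes were 19.9%, 17.6%, 15.7% and 19.3% in the same order, and nothing is read from these counts. limma called 0 of 21 against MBN0, and 5.75% of all genes. At 14 h the muscle genes among those that passed went both ways, with MYL2, MYL6B, TNNC1 and TNNC2 higher and ACTN3 and MYL1 lower. MYL2, a myosin light chain, scored 2.05 and 0.89 at 14 h and 2.39 and 3.87 at 24 h over the matched control, and TNNC1, the slow troponin C, 4.44 and 1.79 and 1.58 and 0.98. MYL1, another light chain, was lower at 14 h, with -1.61 and -0.89. PPP3CA, the calcineurin catalytic subunit, which works with an EF-hand partner, was lower at 24 h, with -1.35 and -1.74. Among these genes the other reading had 1 higher at 14 h (PPP3CA, 1.66), 2 higher at 24 h (CAPNS1 and MYL6B), 0 in MBC14 over MBN0 and 1 lower in MBC24 over MBN0 (ACTN3). The shares over all genes in that reading were 6.37%, 6.02%, 10.3% and 6.84% in the same order. The 24 h means were then 0.20 for PPP3CA and -0.74 for MYL2. Of 14 myoblast and muscle markers 7 were measured, and 1 passed the size rule in the Cy5-over-Cy3 reading, the muscle filament gene DES (desmin) in MBC14 over MBN0, with -0.84 and -1.37. In the other reading DES averaged 0.26 there, and NCAM1 was higher and MYOD1 lower. Of all genes, 15.7% passed in MBC14 over MBN0 in the Cy5-over-Cy3 reading and 10.3% in the other. Nothing is read from these marker counts.

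Across the 8 arrays, with scores as deposited, the members followed different patterns. Between members, Pearson's r ran from -0.61 (S100A4 and S100A8) to 0.35 (S100A4 and S100A6), and between S100A8 and S100A9 it was -0.28. The genes most like S100A4 were ARPC2, a subunit of the actin-branching complex (r = 0.996), the alcohol dehydrogenase ADH1B (0.976) and the corepressor TRIM28 (0.965). Those most like S100A6 were the ribosomal protein gene RPS23 (0.939), the nuclease ENDOG (0.926) and the phosphatase gene PDP1 (0.921). S100A8 was followed by AGBL5 (0.966), the matrix protein gene THBS4 (0.963) and the lamin gene LMNB1 (0.954), and S100P by PRDM8 (0.984), the oxoglutarate dehydrogenase gene OGDH (0.969) and PPP2R3A (0.960). These are the highest values among all genes, over 8 arrays that share RNAs and a dye layout, and they are given as a description.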

How the data were processed

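The authors' deposited values are 1 signed score per spot on each of 8 two-colour arrays. Their background correction, normalisation, scale and direction are not given in the sources used here. Scores ran from -23.57 to 24.79, with array SDs from 1.34 to 1.58 and medians from -0.06 to 0.10. The platform annotation, dated 2016, names the spots: 6610 carry 1 symbol, 106 several and 3268 none here. Signal over background is unknown, so no dim spot was left out, and precision is limited by how few arrays there are.

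Scores were centred on the median of their array, and spots were averaged per gene. The dye swap of the same RNAs counted as 1 replicate. For MBC14 over MBN0 the labelling text and the dye field of array B disagree, and the dye field was used. limma (version 3.58.1, R 4.3.3) was run on the scores, tested first on simulated data, with Benjamini-Hochberg adjustment over 2922 genes. Alternatives were the other reading, other centrings, one scale for all arrays, the spot median, a higher threshold, single spots, left-out arrays and the array letter as a block. Members, lists and rules were chosen with earlier results of these data known. Named genes are the 4 members, the 3 genes most like each, and, per list, up to 4 genes past the size rule in order of mean absolute score. Other list genes were named after their values were seen.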

Additional observations from a re-analysis of the deposited data

Results flagged for a closer look

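In the Cy5-over-Cy3 reading, 4 S100 genes had both arrays on one side of 0 at 14 h and both on the other side at 24 h under the same kind of comparison. None of these differences was tested. The share of all genes with such a switch is not given here, so nothing is read from the number of genes. For S100P over control medium of the same hour, the mean at 24 h minus the mean at 14 h was 0.75 (0.46 against -0.29). For S100A12 in the same comparison it was -1.20 (-0.62 against 0.57). Over MBN0, the difference was 1.52 for S100A9 (0.85 against -0.67) and 2.09 for S100B (1.41 against -0.68). The spots of S100A9 and S100B disagreed more than those of most genes, with median SDs of 0.96 and 1.26. On array A of the matched hours, some spots disagreed in sign as deposited. They were those of S100P at 24 h (-0.13 and 0.44) and of S100A12 at 14 h (1.94 and -0.25). In the conditioned-over-control reading, 1 of the 10 S100 genes showed such a pattern, S100A1 over control medium of the same hour, with a difference of 0.87 (0.67 against -0.20), also not tested. The spots of S100A1 had opposite signs on every matched-hour array, and its median SD between spots was 1.31. Its array values there are therefore means of spots that disagreed.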

How the results depend on the processing

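The direction of array B decided most values. In the conditioned-over-control reading the called scores turned to 1.14 for S100A4 and -0.19 for S100A8 in MBC14 over MBN14, and to 0.26 and 0.58 for S100P in MBC14 and MBC24 over MBN0, and the S100P mean over both hours against MBN0 turned to 0.42. Of the 16 member scores, 14 changed sign in that reading. Across the other centrings, the common scale, the spot median and single spots, 5 of 112 recomputed scores changed sign. On single arrays 5 of 32 had the sign opposite to their mean. The count of members past the size rule in MBC14 over MBN14 was 2, against 0 in the other reading, 1 and 0 with centring on 51 and 11 neighbouring spots, 1 at a threshold of log2 of 3, and 1 to 3 on single arrays. In MBC24 over MBN24 it was 0, against 1 in the other reading and 1 to 3 on single arrays. Against MBN0 it was 1 at both hours, 0 at 14 h at the higher threshold, and 2 to 3 on single arrays at both hours. Genes called in limma against MBN0 numbered 168, against 0 in the other reading, 0 with no centring, 20 and 73 with 51 and 11 neighbouring spots, and 13 to 32 with 1 array letter. Of the members, 1 was called (S100P), 0 in each of these alternatives, and S100P was called again with arrays on one scale and with the spot median. On the matched hours 152 genes were called, against 0 in the other reading, 2 with 11 neighbouring spots, and 0 to 128 with 1 array letter. With the array letter as a replicate block, 24 genes and 0 members were called against MBN0 (S100P at adjusted p = 0.0516), and 28 genes on the matched hours. The letter marks the dye layout, so this is a dye term and no pairing of samples. The causes were not tested.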
